A study of Homo sapiens with 8 samples.

Results

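Transcripts that separate estradiol-treated from hormone-free SKBR3 cells were sought by setting 4 arrays whose medium held estradiol, free or coupled to albumin, against 3 arrays with no hormone, 7 of the 8 arrays of the series in all. Free estradiol was given at 1e-06 M on the first of the estradiol-containing arrays. The other 3 received 1e-06 M of E2-BSA, in which the steroid is linked to bovine serum albumin, alone, with 1e-05 M ICI or with 1e-05 M G15. The hormone-free arrays were untreated cells, the carrier BSA at 1e-06 M and G15 alone at 1e-05 M. The eighth array, 0.1% ethanol, which the labels call the vehicle of estradiol, entered neither set. Arrays were assigned by their titles, and a gene was called separated when all 4 values of the first set lay strictly above, or strictly below, all 3 values of the second.

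Before the 3 h treatment all cells spent 4 h in a steroid-poor medium (10% charcoal-stripped serum). SKBR3 is a human breast cancer cell line with amplified ERBB2, generally held to lack the nuclear receptor ESR1 and to carry GPER1, a G protein-coupled receptor for estrogen. Each array is a different condition, so the sets pool treatments that differ from each other and hold no replicate of any condition. The labels do not say whether arrays came from separate cultures, and any p-value below measures only the spread among these arrays.

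Estradiol acts in many tissues through nuclear receptors that bind DNA at estrogen response elements. It can also act within minutes at the membrane, where GPER1 couples to cyclic AMP and, through release of EGF receptor ligands, to the MAPK cascade, whose transcriptional readout includes immediate early genes such as FOS, EGR1 and the NR4A receptors. G15 is an antagonist of GPER1. ICI is given only by this abbreviation in the labels, and ICI without hormone is not analysed here.

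Values are log2 values centred for each probe set, so that a gene's absolute level is lost and only its order and differences across arrays can be read. For this reason the expression of the breast epithelial markers could not be checked against the cell line's identity. Of the 11 measured identity markers, among them ERBB2, keratins and FOXA1, 0 separated the sets, and their differences ran from -0.10 to 0.16. Marker genes of immune cells (4 measured) and endothelium (4 measured) did not separate either, and of 6 fibroblast markers only COL1A2 did, with a difference of 0.17. Over genes the SD of the values was between 0.0874 and 0.145 on the estradiol-containing arrays and between 0.0978 and 0.133 on the hormone-free arrays, against 0.277 on the ethanol array.

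Few genes separated the sets, and the differences were small. Of 19775 genes, 461 were higher on all 4 estradiol-containing arrays (2.33% of the genes tested) and 559 were lower on all 4 (2.83%), together 5.16%. The median difference between set means was 0.13 on the log2 scale for the higher genes, a 1.10-fold change, and 0.16 in size for the lower genes, a 1.12-fold change. The gap between the sets, the distance from the lowest array of the upper set to the highest array of the lower set, had a median of 0.029 for higher and 0.0312 for lower genes. It reached 0.1 in 34 higher genes (0.172%) and 49 lower genes (0.248%), and 0.2 in 4 genes each way. A further 399 genes met at an identical value without separating.

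No gene passed a test of the pooled difference. With limma and Benjamini-Hochberg adjustment over all 19775 genes, 0 genes were called higher (0%) and 0 lower (0%) at an adjusted p of 0.05, and the smallest adjusted p was 0.95. An unadjusted p under 0.05 was found for 971 genes (4.91%). For a single gene, 4 against 3 arrays give an exact two-sided permutation test no p below 0.0571, which every separated gene reaches by definition. That value is also the chance that a gene without ties separates when the arrays are exchangeable. The share of all genes that separated, 5.16%, was close to it. Ties lower that chance, by an amount that was not tested. The count of separated genes was therefore not shown to exceed what array order alone would give. The 95% interval of the difference had a median half-width of 0.164 over all genes, which is wider than the median difference of the separated genes in either direction. The verbs below therefore describe positions of arrays, and none of the separated genes is a tested change.

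**Figure D1:**
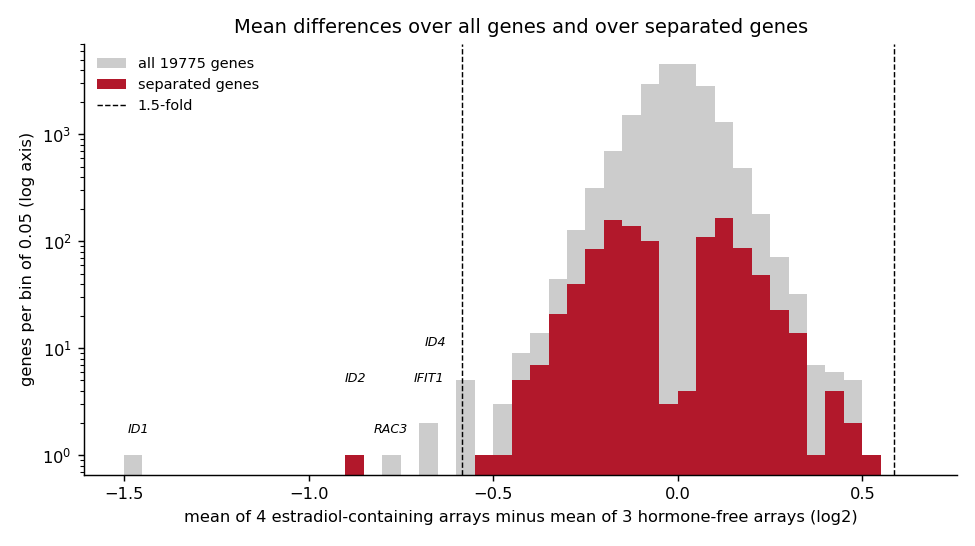
Distribution of the difference between the means of the 4 estradiol-containing and the 3 hormone-free arrays, on the log2 scale, for all 19775 genes (grey) and for the 1020 separated genes (red), with the number of genes on a log axis and dashed lines at 1.5-fold. The separated genes lie inside the range of all genes, and of the 5 genes beyond 1.5-fold, all on the lower side, only ID2 separated.

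Among the genes higher with hormone, NR4A2 was the only member of the 28 lists with a gap of at least 0.1. It encodes an orphan nuclear receptor that is induced by cyclic AMP and MAPK signalling. NR4A2 stood at 0.12 with estradiol, -0.01 with E2-BSA, 0.34 with E2-BSA plus ICI and 0.13 with E2-BSA plus G15, against -0.17 in untreated cells, -0.33 with BSA and -0.38 with G15 alone. The E2-BSA array was the lowest of the hormone arrays and untreated the highest of the others, with 0.162 between them. The mean was 0.15 ± 0.15 in the estradiol-containing set (SD, n = 4) and -0.29 ± 0.11 in the hormone-free set (SD, n = 3), a difference of 0.44 (95% interval 0.24 to 0.64). All 3 of its probe sets separated in the same direction, with differences from 0.34 to 0.55. The ethanol array, without hormone, stood above all of them at 1.86, and with ethanol counted among the hormone-free arrays the NR4A2 difference was -0.10.

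Other genes with a wide gap on the higher side have varied functions. MLLT3, a reader of acylated histones in the complex that releases paused RNA polymerase, stood at 0.06, 0.16, 0.06 and 0.03 with estradiol, E2-BSA and E2-BSA with ICI or G15, in that order, against -0.18, -0.19 and -0.28 in untreated, BSA and G15 cells. Of its 3 probe sets 2 separated, and the ethanol array lay among the hormone arrays, at 0.08. FANCG, a core subunit of the Fanconi anemia DNA repair complex, stood at 0.20, 0.15, 0.26 and 0.20 in the same order of hormone arrays, against -0.09, -0.20 and -0.04. FANCG was also low with ethanol, at -0.30, so that all 4 arrays without hormone lay below all 4 with it. SLC2A12, a glucose transporter, stood at 0.24, 0.27, 0.42 and 0.19 on the hormone arrays, against -0.04, 0.00 and -0.13 on the others, and ethanol stood at the upper edge of the hormone-free arrays. Only 1 of the 2 SLC2A12 probe sets separated.

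GPAT3, an acyltransferase of triglyceride synthesis, had the largest difference of the 12 widest-gap genes on this side, 0.46 (95% interval 0.25 to 0.68). Its hormone arrays ran from 0.00 with E2-BSA plus ICI to 0.35 with E2-BSA, against -0.46 to -0.16 on the hormone-free arrays, and ethanol lay above all of them at 0.51. MTCL1, a microtubule crosslinking protein, had the tightest sets, with an SD of 0.03 over the estradiol-containing and 0.02 over the hormone-free arrays and a difference of 0.27. The noncoding LINC01521 had the widest gap of all separated genes, 0.261, with values of 0.00 to 0.18 against -0.41 to -0.26, and ethanol stood among the hormone arrays at 0.12. The other 5 of the 12 were HSPBAP1, a heat-shock protein partner, the antisense RNA GRIK1-AS2, and GUSBP4, CENPBD2P and ZNF702P, whose names mark them as pseudogenes and whose probes may read related copies. Their differences ran from 0.27 (GRIK1-AS2) to 0.41 (GUSBP4). With ethanol, ZNF702P stood at 0.39, above every other array, HSPBAP1 at 0.06 and GUSBP4 at 0.08, while GRIK1-AS2 (-0.18) and CENPBD2P (-0.13) lay among the hormone-free arrays. For GUSBP4 1 of 2 probe sets separated, with a difference of 0.73, and the other differed by 0.09.

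On the lower side BMF had the widest gap, 0.249. BMF encodes a pro-apoptotic member of the BCL2 family that binds and neutralizes survival proteins. It stood at -0.17 with estradiol, 0.00 with E2-BSA, -0.21 with E2-BSA plus ICI and -0.15 with E2-BSA plus G15, against 0.25 in untreated cells, 0.26 with BSA and 0.50 with G15 alone. G15 alone was the highest array, and E2-BSA the nearest of the hormone arrays to the hormone-free ones. The mean was -0.13 ± 0.09 (SD, n = 4) against 0.34 ± 0.14 (SD, n = 3), a difference of -0.47 (95% interval -0.65 to -0.29). BMF has a single probe set, and the ethanol array lay beyond the hormone arrays, at -0.36.

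CTSZ, a lysosomal cysteine protease, stood at -0.23, -0.15, -0.22 and -0.32 with estradiol, E2-BSA and E2-BSA with ICI or G15, in that order, against 0.01, 0.27 and 0.04 in untreated, BSA and G15 cells. Ethanol stood at -0.01, between the sets, and 1 of the 2 CTSZ probe sets separated, with a difference of -0.54 beside -0.13 for the other. FGF4, a growth factor gene, differed by -0.27 and both of its probe sets separated, at -0.29 and -0.25. FRRS1L, known for its part in assembling glutamate receptors in neurons, differed by -0.26 with 1 of 3 probe sets separated. On the ethanol array FGF4 stood at -0.27, below every array of both sets, and FRRS1L at -0.10, among the hormone arrays. The remaining 8 of the 12 were CLEC2L, a C-type lectin gene, the defensin DEFB123, and the noncoding, pseudogene or uncharacterized LOC286083, LINC00933, SNTB1-AS2, LINC00687, LOC101929963 and MARK2P21. Their differences lay between -0.41 (SNTB1-AS2) and -0.26 (MARK2P21), and each rests on 1 probe set. Ethanol lay below every array of both sets in LINC00687 (-0.55) and LOC286083 (-0.11). It lay among the hormone arrays in SNTB1-AS2 (-0.12), LOC101929963 (-0.07) and MARK2P21 (-0.05). In LINC00933 and DEFB123 it lay at their upper edge, 0.00, and in CLEC2L (0.00) between the sets. Since the values carry no level, it is not known which of these genes are expressed in the cells.

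**Figure D2:**
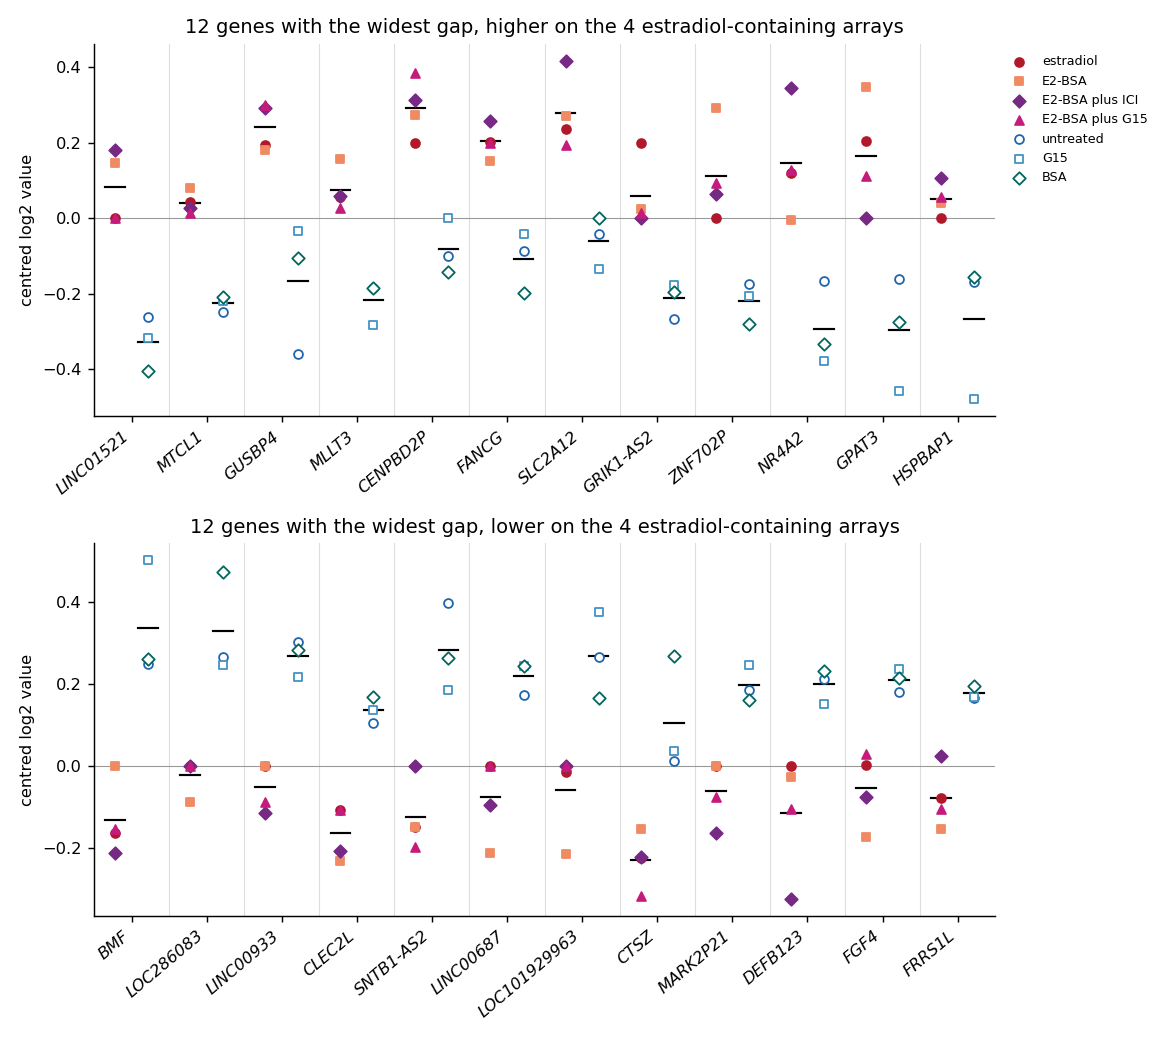
Centred log2 values of the 12 genes with the widest gap on each side, with the 4 estradiol-containing arrays (filled) left of the 3 hormone-free arrays (open) for each gene and the mean of each set as a black bar. The sets do not overlap because the genes were chosen for that, and all values but that of BMF with G15 alone (0.50) lie between -0.48 and 0.48.

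Near the limit of the rule, among genes with a difference of at least 0.2, the sets all but touched. TNFAIP3, an inhibitor of NF-kB signalling, separated by a gap of 0.00047, GALC by 0.00179 and RUNDC3B by 0.00252 on the higher side, and WTIP by 0.000335, ABLIM3 by 0.00304 and SLC16A8 by 0.00339 on the lower side. On the ethanol array TNFAIP3 stood at 5.08, far above every array of both sets, and with ethanol counted among the hormone-free arrays its difference of 0.23 became -1.07. Just outside the limit, CT83, CYLC2 and FRG1EP on the higher side and ZPBP, DEFB1 and SETBP1-DT on the lower side each shared a value of 0.00 between an array with hormone and an array without. Just inside the limit the differences ran up to 0.23 (TNFAIP3) on the higher side and down to -0.28 (WTIP) on the lower side. Just outside it they ran up to 0.33 (CT83) and down to -0.44 (DEFB1, an epithelial defensin).

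Promoter sequence is shown for BMF, the lower gene with the widest gap, and for SPRY1, a higher gene in which both probe sets separated, to set the estrogen question beside the letters at the gene's start. The windows hold 300 bases around the start, 5′ to 3′ on the gene's strand (RefSeq, GRCh38.p14), and capitals mark a single arm of the estrogen response element, GGTCA on either strand. NR4A2 had no entry in the table used.
BMF (chr15:40108830-40109129, minus strand): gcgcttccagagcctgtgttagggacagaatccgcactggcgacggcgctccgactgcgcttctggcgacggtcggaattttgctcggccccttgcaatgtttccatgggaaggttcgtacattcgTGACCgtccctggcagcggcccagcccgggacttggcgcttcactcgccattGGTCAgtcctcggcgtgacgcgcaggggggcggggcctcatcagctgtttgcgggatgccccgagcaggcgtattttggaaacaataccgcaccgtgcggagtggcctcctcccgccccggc
SPRY1 (chr4:123396545-123396844, plus strand): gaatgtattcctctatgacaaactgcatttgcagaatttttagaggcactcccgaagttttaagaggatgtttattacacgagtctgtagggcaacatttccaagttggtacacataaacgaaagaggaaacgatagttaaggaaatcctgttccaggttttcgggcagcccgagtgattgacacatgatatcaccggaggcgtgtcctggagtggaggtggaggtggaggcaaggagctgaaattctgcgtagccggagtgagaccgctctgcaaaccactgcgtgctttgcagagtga

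The BMF window holds 2 such arms, at bases 127 and 179, and the SPRY1 window holds none of the motifs searched. The full element, a pair of GGTCA arms facing each other across any 3 bases, was found in 0 of 379 promoters of the separated higher genes and 0 of 413 of the separated lower genes, against 18 of 27305 promoters in all (0.0659%). The single arm, which the full element contains, was found in 30.3% of the higher and 36.6% of the lower genes, against 37.7% of all promoters. The cyclic AMP response element TGACGTCA was found in 3.69% and 3.39%, against 1.98%, and the AP-1 site TGANTCA in 6.33% and 7.26%, against 7.76%. The 27305 promoters include those of genes that were not measured here, whereas the separated genes are all measured ones. The differences between these shares are therefore not read as a trait of the separated genes. Both strands were read, and a match is a description of the letters, not evidence of binding.

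The receptors themselves did not separate the sets. ESR1, nuclear estrogen receptor alpha, lay between -0.10 and 0.03 on the estradiol-containing arrays, against 0.0049 to 0.09 on the hormone-free arrays, with a difference of -0.08 (95% interval -0.21 to 0.05). For GPER1 the hormone arrays ran from -0.28, with E2-BSA plus G15, to 0.03 and the hormone-free arrays from -0.06 to 0.08, with a difference of -0.12 (95% interval -0.30 to 0.06). ESR2 differed by -0.01 and ERBB2 by -0.09, and both sets overlapped widely. The glucocorticoid receptor NR3C1, named after its values were seen, was the 1 gene of 11 measured receptors to separate, at 0.03 to 0.09 with hormone, against -0.20 to -0.03 without it. It differed by 0.17, and 3 of its 5 probe sets separated.

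Genes that nuclear estrogen receptors are known to induce separated at about the share of all genes. Of 22 measured genes of this list, 1 separated (4.55%; TGIF1, higher by 0.14, with 0 of its 3 probe sets separated), beside 5.16% of all genes, and the list's median difference was -0.004, the same as over all genes to that digit. PGR, the progesterone receptor and a standard target, differed by -0.02 with overlapping sets. Of 9 measured receptor co-regulators, 0 separated.

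Lists tied to rapid membrane signalling held a few separated genes. In the cyclic AMP list 3 of 15 measured genes separated, all higher: NR4A2 and the cyclic AMP phosphodiesterases PDE4B and PDE4D. Of all genes, 5.16% separated and 2.33% separated higher. PDE4B stood at 0.16 with estradiol, 0.15 with E2-BSA, 0.15 with E2-BSA plus ICI and 0.03 with E2-BSA plus G15, against -0.04 in untreated, -0.15 in BSA and -0.10 in G15 cells. The gene mean separated, but 0 of the 3 PDE4B probe sets did so alone. PDE4D separated by a gap of 0.017, with 1 of its 6 probe sets separated. The list's median was 0.07, beside -0.004 over all genes, and 9 of the 15 genes lay above 0, as did 9527 of all 19775 genes.

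SPRY1 and DUSP6 were the separated members among 14 MAPK feedback genes (14.3%, beside 5.16% of all genes), whose products restrain receptor tyrosine kinase and ERK signalling. SPRY1 stood at 0.08, 0.00, 0.19 and 0.05 with estradiol, E2-BSA and E2-BSA with ICI or G15, in that order, against -0.31, -0.06 and -0.39 in untreated, BSA and G15 cells. The gap of 0.0629 was set by E2-BSA and its carrier BSA, and both probe sets separated. DUSP6, an ERK phosphatase, separated by a gap of 0.016, with differences between 0.07 and 0.38 over its 3 probe sets. DUSP4 differed by 0.44 without separating. The list's median was 0.105, and 11 of 14 genes lay above 0, beside 9527 of all 19775.

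Of 29 immediate early genes, 3 separated higher (DUSP6, NR4A2 and SRF) and 1 lower (ATF3, by a gap of 0.002), beside 2.33% higher and 2.83% lower over all genes. The list median was 0.106, beside -0.004 over all genes, and 22 of the 29 genes lay above 0, beside 9527 of all 19775. Of the probe sets of SRF 1 of 2 separated, and of those of ATF3 0 of 3. EGR1 had the largest difference, 0.47, and FOS differed by 0.32, but in both the sets overlapped. The GPER-linked list held NR4A2 and ATF3 as its separated members, 2 of 15 (13.3%, beside 5.16% of all genes), and its median was -0.04. The cyclic AMP, MAPK, immediate early and GPER-linked lists share NR4A2, DUSP6 or ATF3, so their counts are not independent. On the ethanol array NR4A2, PDE4B and ATF3 stood at 1.86, 1.10 and 1.96, far above every array of both sets. SRF (0.29) and PDE4D (0.12) also stood above every array there, and DUSP6 (0.16) and SPRY1 (0.06) stood among the hormone arrays. The part of the vehicle in these differences was not tested.

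The list of bone morphogenetic protein (BMP) and TGF-beta targets held the largest share, 5 of 17 measured genes, beside 5.16% of all genes. The lists were chosen with earlier results of these data known, so this share is a description and not independent support. BMP ligands act through SMAD transcription factors, which induce the ID genes, inhibitors of helix-loop-helix factors, and the inhibitory SMAD6 and SMAD7. ID2, SMAD6, ATOH8 and the homeobox gene DLX2 separated lower and TGIF1 higher. Of the 17 genes, 15 lay below 0, beside 10248 of all 19775 genes. The list's median was -0.19, beside -0.004 over all genes. ID2 stood at -1.24 with estradiol, 0.00 with E2-BSA, -1.22 with E2-BSA plus ICI and -0.58 with E2-BSA plus G15, against 0.22 in untreated, 0.08 in BSA and 0.05 in G15 cells. Its gap was 0.0487, because the E2-BSA array lay just below G15 alone while the other hormone arrays lay far lower. DLX2 had the same form, at -0.52, -0.03, -0.71 and -0.49 on the hormone arrays, against -0.02, 0.06 and 0.18 in untreated, BSA and G15 cells. SMAD6 stood at -0.26, -0.05, -0.33 and -0.29 with hormone, against 0.06, 0.04 and 0.18 without it. Of the probe sets of SMAD6 0 of 4 separated, with differences from -0.72 to -0.16. For ID2 and DLX2 1 of 2 did, for ATOH8 1 of 3 and for TGIF1 0 of 3. On the ethanol array DLX2 stood at 0.63 and TGIF1 at 0.61, above every array of both sets.

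**Figure D3:**
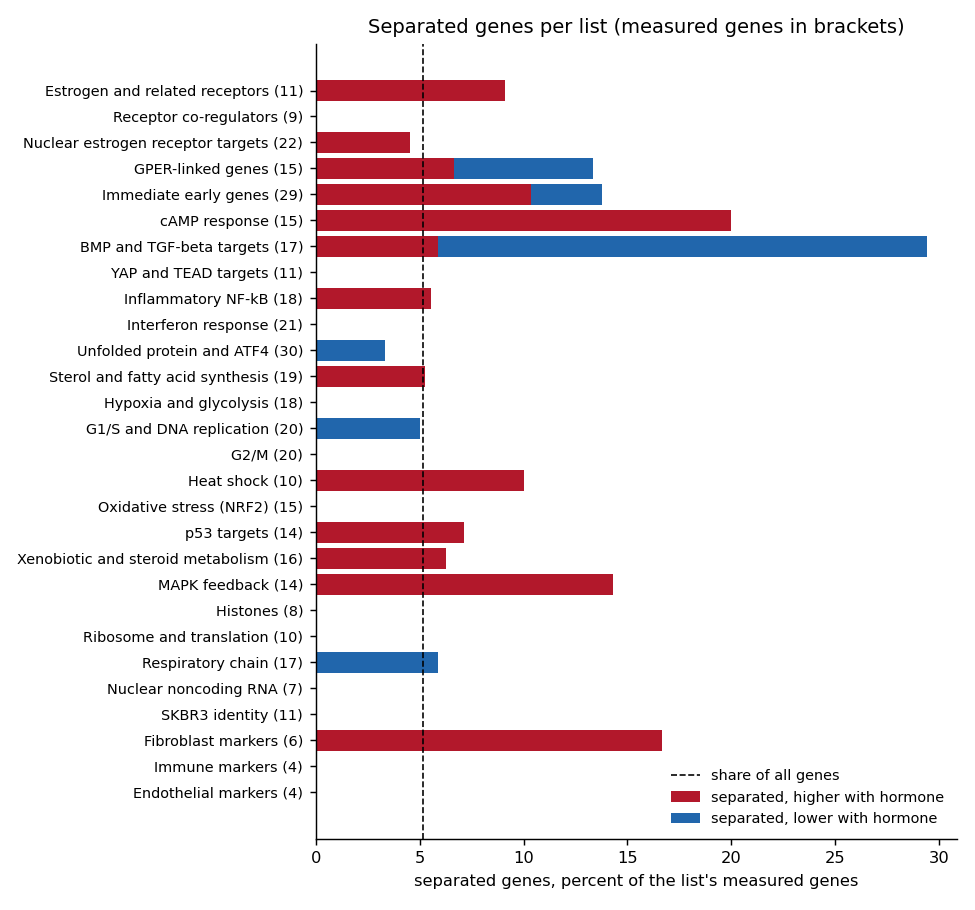
Share of each list's measured genes that separated, in percent, with genes higher with hormone in red and lower in blue, the number of measured genes in brackets and the share of all genes (5.16%) as a dashed line. The BMP and TGF-beta list reaches 29.4% and the cyclic AMP list 20.0%, from 5 and 3 genes, and 12 lists hold no separated gene. The lists were chosen with earlier results of these data known.

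Lists of other processes held 0 or 1 separated gene each, where 5.16% of all genes separated. With 7 to 30 measured genes per list, counts of 0 or 1 cannot be told apart from that share. The inflammatory NF-kB list held TNFAIP3 (5.08 on the ethanol array) of 18, the unfolded protein and ATF4 list ATF3 of 30, sterol and fatty acid synthesis ACACA of 19, G1/S and DNA replication GINS2 of 20, heat shock HSPD1 of 10, p53 targets ZMAT3 of 14, xenobiotic and steroid metabolism TIPARP of 16 and the respiratory chain COX7A2 of 17. None of the 21 interferon, 20 G2/M, 18 hypoxia and glycolysis, 15 oxidative stress, 11 YAP and TEAD, 10 ribosome and translation, 8 histone or 7 nuclear noncoding RNA genes separated. For HSPD1, a mitochondrial chaperonin, 1 probe set separated higher and 1 lower, so its difference of 0.21 is uncertain.

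The largest pooled differences belonged to genes that, with the exception of ID2, did not separate the sets. At 1.5-fold, 5 genes were lower (0.0253%) and 0 were higher (0%): ID1, ID2, RAC3, IFIT1 and ID4, named here because of their values. ID1 stood at -2.02 with estradiol, 0.04 with E2-BSA, -1.93 with E2-BSA plus ICI and -1.70 with E2-BSA plus G15, against 0.01, 0.17 and 0.00 in untreated, BSA and G15 cells. The E2-BSA array thus lay among the hormone-free arrays, 0.0175 below their mean. The difference of -1.46 had a 95% interval from -2.40 to -0.52 and an adjusted p of 0.95 (limma). RAC3 was low with both antagonist combinations, at -1.65 with ICI and -1.54 with G15, and not with estradiol (0.00) or E2-BSA (0.44). IFIT1, an interferon-induced antiviral gene, stood at -0.57 with E2-BSA plus G15, close to its -0.48 with G15 alone, and lower still with estradiol (-1.25) and with E2-BSA plus ICI (-1.56).

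Leaving out the E2-BSA array changed the test. The 3 remaining estradiol-containing arrays were lower than the 3 hormone-free arrays in 6 genes (0.0303%) and higher in 0 (0%) by limma at an adjusted p of 0.05, and 821 genes had an unadjusted p under 0.05. The genes were ID1 (difference -1.94, adjusted p = 0.00039), ID4 (-0.89, 0.00431), ID3 (-0.75, 0.0365), SMAD7 (-0.66, 0.0481), EDN2 (-0.76, 0.0481) and HOXC13 (-0.79, 0.0481). Of these, 4 are BMP targets by the list used here, EDN2 encodes an endothelin peptide and HOXC13 a homeobox factor. ID1 averaged -1.88 ± 0.17 over the 3 arrays, against 0.06 ± 0.10 without hormone (SD, n = 3 each). For SMAD7 the 3 arrays lay at -0.61, -0.66 and -0.53, against -0.01, 0.18 and 0.00 in untreated, BSA and G15 cells, and the E2-BSA array at 0.22. For HOXC13 they lay at -0.70, -0.67 and -0.92, against -0.07, 0.13 and 0.00, with E2-BSA at 0.15. On the ethanol array ID1 stood at -0.34, below the hormone-free arrays, and ID3, ID4, SMAD7 and HOXC13 stood at 0.20 to 0.35, above them. EDN2 stood at 0.00 with ethanol, below the hormone-free arrays and above the 3 hormone arrays. No other array, left out in its turn, gave any call. These genes were known from earlier results on the same arrays, and the adjusted p-values are not adjusted for the choice of the array left out.

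**Figure D4:**
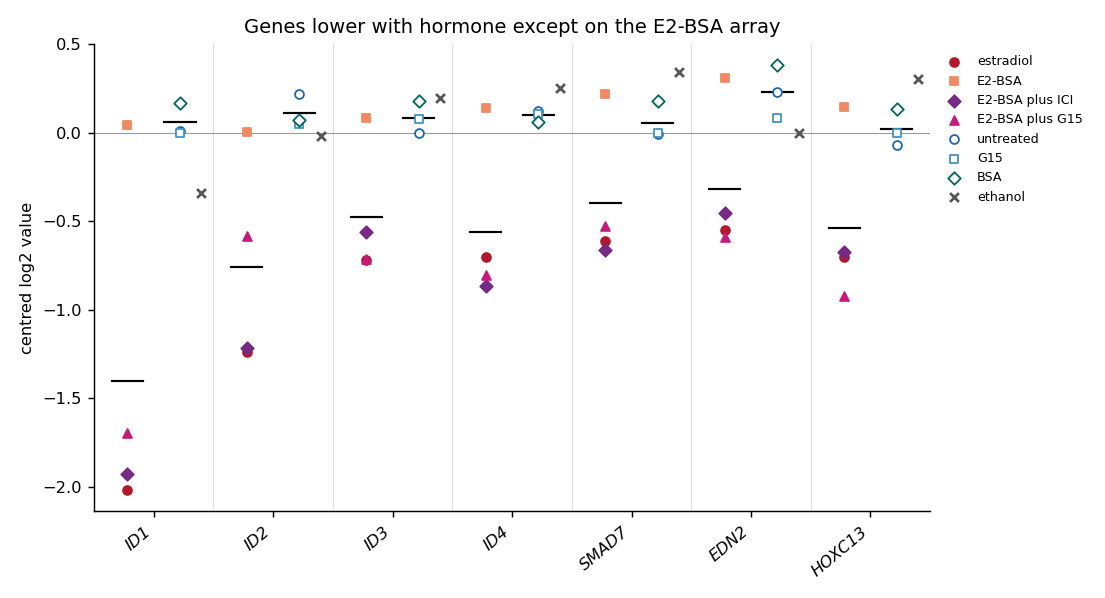
Centred log2 values of ID1 to ID4, SMAD7, EDN2 and HOXC13 on the 4 estradiol-containing arrays (filled, left), the 3 hormone-free arrays (open) and the ethanol array (cross, right), with black bars for the means of both sets. In each gene, taken as the mean of its probe sets, the estradiol array and both antagonist combinations lie below every hormone-free array. E2-BSA lies apart from them, for ID1 at 0.04 against -2.02 to -1.70.

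The ethanol array, which holds no hormone and was not used to choose the genes, lay with the hormone-free arrays in a minority of the separated genes. Of the 461 higher genes, it lay at or beyond the nearest estradiol-containing array in 280 (60.7%), at or beyond the nearest hormone-free array in 146 (31.7%) and between the sets in 35. Of the 559 lower genes, it lay with the estradiol-containing arrays in 454 (81.2%), with the hormone-free arrays in 72 (12.9%) and between them in 33. With 4 hormone and 3 hormone-free arrays, more of the possible ranks lie with the hormone arrays. The ethanol array also had a median over genes of -0.0183, against 0 on every other array, and the largest SD. The part of either in these counts was not tested. Against ethanol, its vehicle, the estradiol array differed in the direction of the separation in 225 of the 461 higher genes (48.8%) and 191 of the 559 lower genes (34.2%). The same shares over all genes were not computed, so neither is read as a trait of the separated genes. With ethanol counted among the hormone-free arrays, 181 genes remained separated higher and 105 lower.

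**Figure D5:**
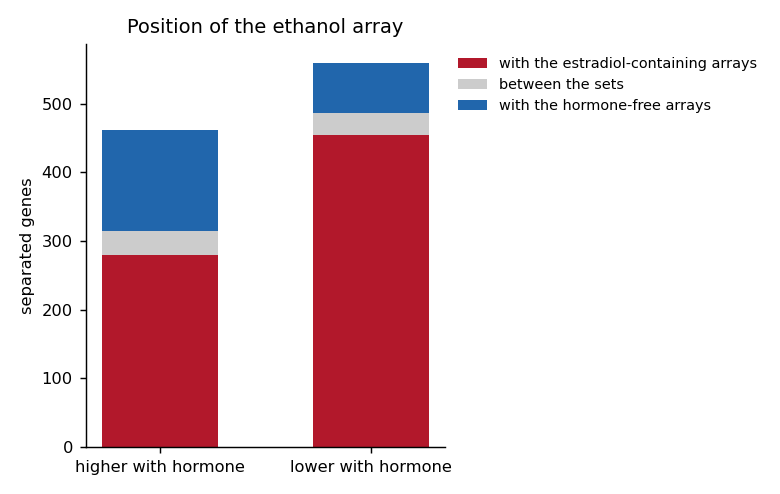
Number of separated genes in which the ethanol array lay with the 4 estradiol-containing arrays (red), between the sets (grey) or with the 3 hormone-free arrays (blue), for genes higher and genes lower with hormone. It lay with the estradiol-containing arrays in 280 of 461 and 454 of 559 genes. The estradiol-containing set holds more arrays, and the ethanol array has a lower median over genes than any other array.

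The arrays did not contribute equally to the separation. E2-BSA was the array farthest from the hormone-free set in 197 of the 461 higher and 272 of the 559 lower genes, more often than any other hormone array, although for ID1 it lay among the hormone-free arrays. Free estradiol was farthest in 54 and 72 genes. It was the nearest in 125 and 143, beside 118 and 143 for E2-BSA plus ICI and 124 and 125 for E2-BSA plus G15. Over genes, free estradiol had the smallest SD of the hormone arrays (0.0874) and untreated that of the hormone-free arrays (0.0978). Whether spread sets these ranks was not tested. Among the hormone-free arrays the untreated array was nearest to the hormone arrays in 203 higher and 238 lower genes, while BSA was most often the farthest in higher genes (179) and G15 alone in lower genes (263).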

How the data were processed

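Biotin-labelled RNA of SKBR3 cells was hybridized to 8 arrays, each for its own condition and with 54675 probe sets, per the labels' protocols. The deposited values were read as log2. The sources used here do not give their base, summarization or normalization. They lie between -2.27 and 7.85, and in every probe set at most 4 of 8 arrays lie above 0 and at most 4 below, as after centring on a median; 48.3% of the probe sets hold an exact 0 on 2 or more arrays.

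Control probe sets (62) and those with several genes (1801) or none were left out. The 41091 probe sets with 1 gene in the platform annotation, 41037 of them matched to a current record, were averaged to 19775 genes, of which 9252 rest on 1 probe set. Values differing by less than 1e-09 counted as equal. Set means were compared with limma 3.58.1 in R 4.3.3, unblocked and without trend, with Benjamini-Hochberg adjustment, after checks on simulated data. The exact permutation test used scipy 1.17.1. The number of arrays limits the precision. Genes named were the 12 widest gaps each way, list members with a gap of at least 0.1, 4 receptors, and 3 genes just inside and 3 just outside the limit each way. Others are named after their values were seen, including list members under that gap. The array sets, genes and 28 lists were chosen with earlier results of these data known. No batch is given in the labels. Alternatives concerned probe set summaries, arrays left out or added, G15 as a factor, gaps and ties.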

Additional observations from a re-analysis of the deposited data

Results flagged for a closer look

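In 9 of 49 named genes a single array stood far from the other estradiol-containing arrays, by a gap to its nearest neighbour above Dixon's 95% limit for 4 values. Chance alone flags about 1 in 20 such groups, and several of these genes were chosen for their pattern. The E2-BSA array stood apart in ID1 at 0.0425 against -2.02 to -1.70 on the other hormone arrays, in ID4 at 0.14 against -0.86 to -0.70, in EDN2 at 0.311 against -0.59 to -0.45 and in SMAD7 at 0.22 against -0.66 to -0.53. It also stood apart in LOC286083, at -0.0888 against 0.00 on each of the others, and in LOC101929963, at -0.217 against -0.01 to 0.00. The estradiol array stood apart in GRIK1-AS2, at 0.20 against 0.00 to 0.02. The E2-BSA plus G15 array stood apart in FRG1EP, at 0.345 against 0.00 to 0.04, and in ABLIM3, at -0.137 against -0.01 to 0.01.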

How the results depend on the processing

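The median of probe sets and leaving out genes tied at 0 kept every count within 1.5 times. Centring each array on its median could change nothing, since the median over genes was already 0 on each of the 7 arrays used. For each count, separated genes are given higher then lower. The count was 921 and 967 without G15 alone, 807 and 915 without free estradiol, and 3008 and 2902 without the antagonist arrays on both sides; fewer arrays then have to agree. It was 181 and 105 with ethanol added, 34 and 49 at a gap of at least 0.1, 4 and 4 at 0.2, and, added after seeing the data, 10 and 4 where every one of several probe sets separated. Leaving out 1 array at a time gave 703 to 1449 higher and 880 to 1663 lower genes, the most without the untreated array, and each array's removal moved at least one of these counts by over 1.5 times. Here too fewer arrays have to agree. Leaving out a hormone-free array leaves sets of other sizes than leaving out a hormone array, so these counts are not on one scale. Genes past the limma threshold stayed at 0 higher, and at 0 lower except for the 6 without E2-BSA. Genes at 1.5-fold ranged from 0 to 3 higher and 2 to 14 lower when 1 array was left out, with 14 lower without E2-BSA, 11 without untreated, 3 without E2-BSA plus G15 and 2 without E2-BSA plus ICI. They were 17 higher and 9 lower with the most variable probe set, 1 higher without x_at and s_at probe sets, 29 lower with ethanol added, 1 higher without G15 alone, 2 higher and 3 lower without antagonist arrays, and 2 lower over 3 matched pairs, a fit added after seeing the data. At a gap of at least 0.1 ethanol lay with the hormone-free arrays in 17.6% of higher and 6.12% of lower genes. Of 858 values for named genes, 8 reversed: NR4A2 (-0.0991) and TNFAIP3 (-1.07) with ethanol added, RAC3 (0.0699) without antagonist arrays, ERBB2 (0.00456) with the median of probe sets, and ESR2 without free estradiol (0.014, also as an array left out in turn), without E2-BSA plus G15 (0.000324) or without BSA (0.00316); over single arrays left out ESR2 reached down to -0.0417. Causes were not tested. Replicate numbers are only names here; the paired fit over the 3 matched pairs, formed by treatment, gave 0 limma calls (1186 genes at an unadjusted p under 0.05). Signal over background cannot be judged from centred values.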

Other observations

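In 14 of the 10523 genes with several probe sets (0.133%) each probe set separated the arrays with hormone from those without, 10 higher and 4 lower; apart from NR4A2 and FGF4 they are named after their values were seen. The higher genes included RIPK2 (difference 0.14) and TRAF6 (0.14), which relay innate immune receptors to NF-kB, WNT5A (0.11), a noncanonical Wnt ligand, the splicing helicase DDX23 (0.27), MATN2 (0.21), SPOUT1 (0.20), ZNF330 (0.13), OPN3 (0.11) and SPRY1 (0.34). On the ethanol array RIPK2 stood at 1.88, TRAF6 at 0.43, OPN3 at 0.35 and ZNF330 at 0.29, each, like NR4A2 at 1.86, above every array of both sets, while DDX23 stood at -0.22 and WNT5A at -0.20. The lower genes were LIN7B (-0.29), FGF4 (-0.27), MLLT1 (-0.16), a relative of MLLT3 in the same elongation complex, and MAPK15 (-0.13). MLLT3 and MLLT1 thus stood on opposite sides, at 0.29 and -0.16. With ethanol, FGF4 (-0.27) and MLLT1 (-0.19) lay below every array of both sets. MAPK15 (-0.05) lay among the hormone arrays and LIN7B (0.03) among the hormone-free arrays. INTU, a ciliogenesis gene, had the largest difference of any separated higher gene, 0.52, to which the BSA array at -1.02 contributed most, with untreated at -0.32 and G15 alone at -0.31.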
